A study of Mus musculus with 8 samples.

Results

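Toll-like receptors are membrane proteins through which macrophages sense microbial molecules. TLR4 binds LPS with its co-receptors, TLR2 pairs with TLR1 or TLR6 to bind bacterial lipopeptides, TLR5 binds flagellin, and TLR3, TLR7, TLR8, TLR9 and TLR13 reside in endosomes, where they sense nucleic acids. All except TLR3 signal through the adaptor MyD88, TLR3 signals through TRIF, and TLR4 uses both. LPS itself changes the mRNA of several receptors of this family, IL-10 restrains the LPS response, and miR-155 is a microRNA that LPS induces in macrophages.

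The 10 family members examined were *Tlr1*, *Tlr2*, *Tlr3*, *Tlr4*, *Tlr5*, *Tlr6*, *Tlr7*, *Tlr8*, *Tlr9* and *Tlr13*, of 18183 genes with a probe set of their own on the array. They had 16 of the 45101 probe sets, each annotated to 1 member alone, and the brightest probe set of each gene over the 8 arrays gave its value. The 4 groups were miR-155-/-(LPS + IL-10), miR-155-/-(LPS), WT(LPS + IL-10) and WT(LPS), with 2 arrays each. All were bone marrow-derived macrophages (BMDM) of C57Bl/6 mice, grown for 7 days in medium with 15% L929-conditioned supernatant from marrow that had been frozen. All received LPS at 100 ng/ml for 24 h, and the IL-10 groups received IL-10 at 20 ng/ml 5 min before it. No group was left without LPS, so the design holds no resting level of any receptor. Each of 2 knockout and 2 WT animals gave 1 array per treatment, and the number of arrays limits the precision.

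By their labels the knockout animals were male and the WT animals female, and the Y-linked signal went with the label on 8 of 8 arrays. Genotype and sex therefore cannot be told apart in any comparison of knockout with WT arrays. *Tlr7*, *Tlr8* and *Tlr13* lie on the X chromosome. The macrophage markers looked up were high on every array, between 8.03 and 13.46 on the log2 scale (9 of 10 were matched), including *Adgre1* and *Csf1r*. Markers of B cells did not exceed 4.15 and those of T and NK cells 4.71 on any array, and 6 of 7 dendritic cell markers did not exceed 4.35. The other, *Bst2*, which interferon also induces in macrophages, lay between 10.63 and 12.04. Of 13 fibroblast and stromal markers, 12 were highest on an array of WT donor 1. There the medians of the 13 were 10.13 with LPS + IL-10 and 10.06 with LPS, against 3.26 to 5.14 on the other 6 arrays. *Thy1*, among the 12, lay at 3.17 to 3.82 on all arrays. The exception, *Lum*, measured 4.91 and 5.63 in miR-155-/-(LPS), against 2.63 and 2.77 in WT(LPS) (log2 fold change 2.57, adjusted p = 0.0125 from limma). The part of stromal cells in the receptor values was not tested. The larger estimates that rest on WT arrays are given with and without WT donor 1. Without this donor each WT group holds 1 array, which is assumed to vary like the others, and that fit used no donor block. In RNA from whole cultures, fewer cells of a type and less RNA per cell cannot be told apart. Among 6 neutrophil markers, *S100a8*, *S100a9* and *Mmp8* measured less in miR-155-/-(LPS) cells than in those of WT(LPS). *Camp* ran the other way, at 6.30 and 5.82 in miR-155-/-(LPS), against 5.78 and 5.07 in WT(LPS), and *Mpo* and *Elane* lay at 1.58 to 2.66 on all arrays. The list's summed level on the log2 scale was 12.54 and 12.82 in miR-155-/-(LPS + IL-10), against 11.02 and 11.27 in miR-155-/-(LPS). In WT(LPS + IL-10) it was 13.30 and 13.35, against 12.53 and 12.45 in WT(LPS). This sum rests largely on *S100a8*, at 12.41 and 12.59 in miR-155-/-(LPS + IL-10), against 10.82 and 11.00 in miR-155-/-(LPS). The list's median ran the other way in knockout cells, at 4.55 and 4.21 with LPS + IL-10, against 5.03 and 5.01 with LPS. In WT cells it was 6.43 and 6.64, against 6.21 and 6.32. The part of these markers in the receptor values was not tested.

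The microRNA removed in the knockout is shown first, since its absence defines the genotype. Its mature form lies at chr16:84714143-84714165 on the plus strand of GRCm38.p6 (RefSeq), and its seed, bases 2 to 8, is in capitals.
miR-155-5p: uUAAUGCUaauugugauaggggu
Promoter windows, from 250 bases before to 50 after an annotated start, were available from RefSeq for 8 of the 10 members (10 windows). They were searched on both strands for a STAT site (TTCNNNGAA), an interferon-stimulated response element (GAAANNGAA), an NF-kB site (GGNNTTTCC) and a PU.1 core (GAGGAA). Of all 32851 promoters, 8.3% held the STAT site, 8.56% the interferon element, 5.82% the NF-kB site and 28.3% the PU.1 core. Of the 10 member windows, 3 held the STAT site (*Tlr1*, *Tlr6* and *Tlr8*), 2 the interferon element (*Tlr6* and *Tlr8*), 2 the NF-kB site (*Tlr3* and *Tlr5*) and 4 the PU.1 core (*Tlr1*, *Tlr8*, *Tlr9* and *Tlr13*). The *Tlr3* window (chr8:45410331-45410630, minus strand) and the *Tlr2* window (chr3:83841559-83841858, minus strand) are shown because both genes had lower values with IL-10 in each of 4 donors. The *Tlr6* window with the interferon element (chr5:64959117-64959416, minus strand) is shown because *Tlr6* differed in direction between the genotypes. Capitals mark the motif matches, of which the *Tlr6* window holds 2 that overlap and the *Tlr2* window none. Only the letters given above were searched, so a window without a match may hold other forms of these sites.
Tlr3 promoter: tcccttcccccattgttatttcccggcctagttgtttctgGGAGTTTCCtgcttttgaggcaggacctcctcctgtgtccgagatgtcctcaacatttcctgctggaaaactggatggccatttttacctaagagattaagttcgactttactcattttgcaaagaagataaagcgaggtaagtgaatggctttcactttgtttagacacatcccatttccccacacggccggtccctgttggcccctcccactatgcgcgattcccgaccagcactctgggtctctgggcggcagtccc
Tlr2 promoter: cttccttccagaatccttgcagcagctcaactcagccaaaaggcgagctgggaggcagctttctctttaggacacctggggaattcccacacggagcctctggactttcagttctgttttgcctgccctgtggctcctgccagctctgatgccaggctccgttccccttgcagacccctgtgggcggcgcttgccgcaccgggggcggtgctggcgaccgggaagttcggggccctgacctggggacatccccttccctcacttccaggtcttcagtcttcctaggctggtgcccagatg
Tlr6 promoter: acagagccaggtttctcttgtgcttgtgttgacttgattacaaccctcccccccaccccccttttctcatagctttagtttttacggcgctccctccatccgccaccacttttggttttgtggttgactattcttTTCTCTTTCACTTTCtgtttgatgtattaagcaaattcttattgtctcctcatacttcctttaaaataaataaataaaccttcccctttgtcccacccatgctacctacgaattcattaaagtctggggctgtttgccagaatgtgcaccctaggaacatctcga

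Across the family, shifts between groups were small. No member's brightest probe set passed an adjusted p of 0.05 (limma, Benjamini-Hochberg adjustment over 45011 probe sets) in any of 5 comparisons, and no log2 fold change exceeded 1 in size. At that threshold IL-10 called 2.68% of all probe sets in knockout cells and 0.0311% in WT cells. The knockout called 1.46% against WT with LPS and 0.0711% with LPS + IL-10, and the change in IL-10 effect with genotype 0.0333%. Groups are also described below by whether their arrays overlap, which is a description and no test. The share of all probe sets whose arrays separate in these ways was not computed.

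At an unadjusted p under 0.05, which makes no allowance for the number of probe sets, 5 of the 10 members stood apart between miR-155-/-(LPS + IL-10) and miR-155-/-(LPS). There *Tlr4* was higher with IL-10, and *Tlr1*, *Tlr2*, *Tlr3* and *Tlr6* were lower. The share among all probe sets was 17.3%, or 27.4% of the 15434 whose mean log2 value reached 6. Between WT(LPS + IL-10) and WT(LPS), 3 members did so (*Tlr4* higher, *Tlr2* and *Tlr3* lower), against 9.27% of all probe sets and 10.8% of the brighter ones. Between miR-155-/-(LPS) and WT(LPS) it was 5 members, *Tlr1* and *Tlr3* higher in the knockout and *Tlr4*, *Tlr5* and *Tlr13* lower, against 13.8% and 22.1%. Between miR-155-/-(LPS + IL-10) and WT(LPS + IL-10) it was *Tlr4* alone, lower in the knockout, against 8.94% and 11.5%. The IL-10 effect itself differed between genotypes at this level for *Tlr1* and *Tlr5*, against 10.4% and 12.5%. With the donor as a fixed block *Tlr2* left the first of these sets and *Tlr3* the second, while in the last *Tlr6* took the place of *Tlr5*. Without WT donor 1 *Tlr4* and *Tlr5* left the set for miR-155-/-(LPS) against WT(LPS), *Tlr3* joined that for LPS + IL-10, and no member had a differing IL-10 effect at this level. The median log2 fold change of the 10 members was -0.01 for IL-10 in knockout cells, -0.13 for IL-10 in WT cells, -0.01 for knockout against WT with LPS and 0.12 with LPS + IL-10, beside medians over all probe sets of 0.01, 0.00, 0.02 and 0.03.

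**Figure D1:**
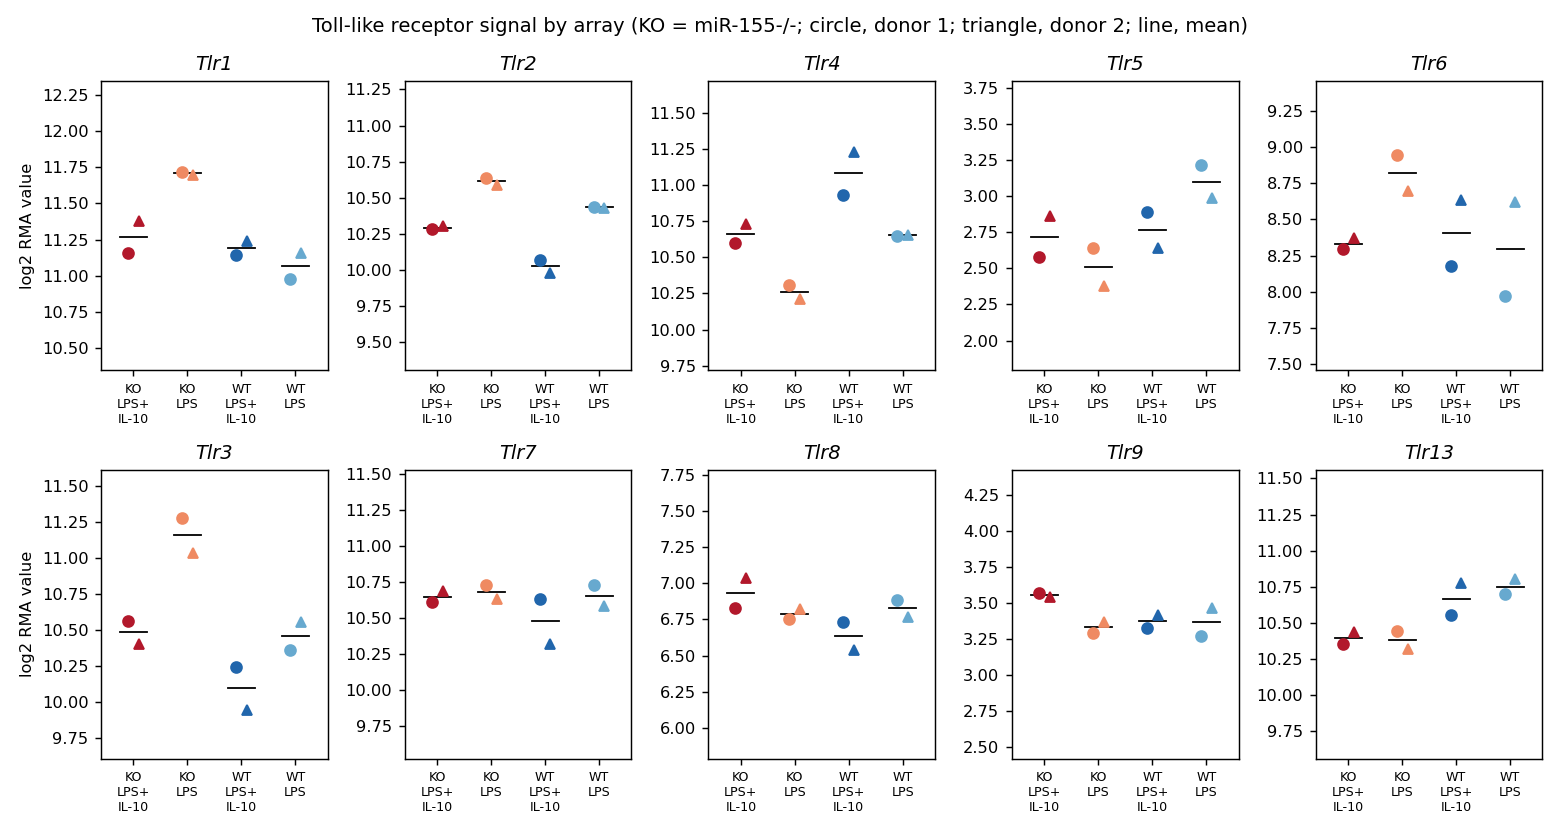
Log2 RMA value of each receptor's brightest probe set on the 8 arrays (vertical axis, 2 log2 units in every panel, so levels differ between panels but distances do not), by group. Circles are donor 1, triangles donor 2 of each genotype and lines the mean of 2. The *Tlr1*, *Tlr2*, *Tlr3* and *Tlr6* points of miR-155-/-(LPS) lie above those of the other 3 groups, and the *Tlr4* points of miR-155-/-(LPS) lie below them.

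*Tlr4*, the LPS receptor of the family, was the member whose values lay higher with IL-10 in both genotypes. It measured 10.60 and 10.73 in miR-155-/-(LPS + IL-10), against 10.31 and 10.21 in miR-155-/-(LPS). It measured 10.93 and 11.23 in WT(LPS + IL-10), against 10.65 and 10.65 in WT(LPS). The IL-10 and LPS arrays did not overlap within either genotype, and the knockout arrays were lower than the WT arrays under each treatment, with knockout cells given IL-10 lying at about the WT(LPS) level. The log2 fold change with IL-10 was 0.40 in knockout cells (SE 0.13, 95% interval 0.10 to 0.71, adjusted p = 0.174 from limma) and 0.43 in WT cells (SE 0.13, 95% interval 0.12 to 0.74, adjusted p = 0.411). These IL-10 effects differed by -0.03, with an interval of -0.46 to 0.41. For knockout against WT the log2 fold change was -0.39 with LPS (SE 0.149, 95% interval -0.74 to -0.04, adjusted p = 0.309) and -0.42 with LPS + IL-10 (SE 0.149, 95% interval -0.77 to -0.06, adjusted p = 0.485). Without WT donor 1 the estimates were 0.57 for IL-10 in WT cells, -0.17 for the difference between the IL-10 effects (interval -0.73 to 0.39), -0.39 for knockout against WT with LPS and -0.56 with LPS + IL-10. The WT(LPS + IL-10) array of donor 2 was the highest of the 8, and without it alone the estimate was 0.28 for IL-10 in WT cells and -0.27 for knockout against WT with LPS + IL-10. Averaging the *Tlr4* probe sets gave 0.26 and -0.16 for these 2 comparisons.

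*Tlr4* has 3 further probe sets, and the pair with signal passed the adjusted threshold in knockout cells. Probe set 1418163_at measured 7.82 and 7.90 in miR-155-/-(LPS + IL-10) and 7.12 and 6.95 in miR-155-/-(LPS). In WT cells it measured 8.16 and 7.80 with LPS + IL-10, against 7.80 and 7.58 with LPS. Its miR-155-/-(LPS) arrays were the lowest of the 8, and IL-10 raised it in knockout cells by 0.82 on the log2 scale, 1.77-fold (SE 0.144, adjusted p = 0.0367 from limma). Probe set 1442827_at measured 6.02 and 6.10 in miR-155-/-(LPS + IL-10) and 5.21 and 4.99 in miR-155-/-(LPS). In WT cells it measured 6.20 and 5.76 with LPS + IL-10, against 6.07 and 5.65 with LPS. Here IL-10 raised the knockout signal by 0.96, 1.94-fold (SE 0.172, adjusted p = 0.0393 from limma), while the WT groups overlapped. For knockout against WT with LPS the estimate was -0.66 for 1418163_at (interval -1.05 to -0.27, adjusted p = 0.13 from limma). It was -0.76 for 1442827_at (interval -1.23 to -0.29, adjusted p = 0.143), beside -0.39 for the brightest probe set. With LPS + IL-10 the estimate was -0.12 for 1418163_at (interval -0.51 to 0.27) and 0.08 for 1442827_at (interval -0.39 to 0.55), beside -0.42 for the brightest probe set. The IL-10 effect was larger in knockout than in WT cells by 0.53 for 1418163_at (adjusted p = 0.451) and by 0.84 for 1442827_at (adjusted p = 0.371), which did not pass the test. The call of 1418163_at was lost without any 1 of 6 arrays, the 4 knockout and the 2 WT(LPS) arrays (adjusted p 0.0682 to 0.199), and that of 1442827_at without any 1 of the 8 (0.0546 to 0.203). Without WT donor 1 the adjusted p-values were 0.0577 and 0.043. The remaining probe set, 1430695_at, lay at 1.55 to 2.20 on all arrays. That is no higher than the signal of Y-linked probe sets on the arrays of female donors, which reached 2.62 without any such transcript in the cells.

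Of the receptors for bacterial lipopeptides, *Tlr2*, the shared subunit of both pairs, measured 10.28 and 10.31 in miR-155-/-(LPS + IL-10), against 10.64 and 10.59 in miR-155-/-(LPS). In WT(LPS + IL-10) it measured 10.07 and 9.98, against 10.44 and 10.43 in WT(LPS). Replicates lay close together (SD of 0.0652 or less in each group), and no array with IL-10 reached the value of an array with LPS alone. The log2 fold change with IL-10 was -0.32 in knockout cells (SE 0.104, 95% interval -0.57 to -0.08, adjusted p = 0.176 from limma) and -0.41 in WT cells (SE 0.104, 95% interval -0.65 to -0.16, adjusted p = 0.313), and the WT estimate was -0.45 without WT donor 1. The difference between these effects was 0.09, with an interval of -0.26 to 0.44.

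*Tlr1*, the partner of TLR2 for triacylated lipopeptides, was highest in knockout cells given LPS alone. It measured 11.16 and 11.38 in miR-155-/-(LPS + IL-10), against 11.72 and 11.70 in miR-155-/-(LPS). It measured 11.15 and 11.24 in WT(LPS + IL-10), against 10.97 and 11.16 in WT(LPS). Both miR-155-/-(LPS) arrays lay above all 6 others, as they also did for *Tlr2*, *Tlr3* and *Tlr6*. For miR-155-/-(LPS) over WT(LPS) the log2 fold change was 0.64 (SE 0.141, 95% interval 0.31 to 0.98, adjusted p = 0.0922 from limma), and 0.55 without WT donor 1. With LPS + IL-10 it was 0.07, with an interval of -0.26 to 0.41, and 0.03 without WT donor 1. IL-10 gave -0.44 in knockout cells (SE 0.123, 95% interval -0.73 to -0.15, adjusted p = 0.126) and 0.13 in WT cells (interval -0.16 to 0.42). The IL-10 effects differed by -0.57 (SE 0.174, 95% interval -0.98 to -0.16, adjusted p = 0.392), and by -0.52 without WT donor 1.

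*Tlr6*, the partner of TLR2 for diacylated lipopeptides, measured 8.29 and 8.37 in miR-155-/-(LPS + IL-10), against 8.94 and 8.70 in miR-155-/-(LPS). It measured 8.18 and 8.64 in WT(LPS + IL-10), against 7.97 and 8.62 in WT(LPS). The WT values split by donor rather than by treatment, and the mean of WT donor 1 minus that of WT donor 2 was -0.55. IL-10 gave a log2 fold change of -0.49 in knockout cells (SE 0.206, 95% interval -0.97 to -0.0025, adjusted p = 0.287 from limma) and 0.11 in WT cells (interval -0.37 to 0.60). Between miR-155-/-(LPS) and WT(LPS) the estimate of 0.53 (interval -0.03 to 1.08) was 0.20 without WT donor 1. *Tlr1* and *Tlr6* are neighbours on chromosome 5.

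*Tlr5*, the flagellin receptor, lay near background. It measured 2.58 and 2.86 in miR-155-/-(LPS + IL-10), against 2.64 and 2.38 in miR-155-/-(LPS), with 2.89 and 2.64 in WT(LPS + IL-10), against 3.21 and 2.99 in WT(LPS). On 2 of the 8 arrays, both from knockout cells, this was no higher than the Y-linked signal on female arrays. For miR-155-/-(LPS) over WT(LPS) the log2 fold change was -0.59 (SE 0.183, 95% interval -1.02 to -0.16, adjusted p = 0.212 from limma), and -0.48 without WT donor 1. The IL-10 effect was larger in knockout than in WT cells by 0.54 (SE 0.226, 95% interval 0.01 to 1.07, adjusted p = 0.473), and by 0.55 without WT donor 1, where the interval of -0.17 to 1.27 held 0.

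Of the endosomal receptors, *Tlr3*, the receptor for double-stranded RNA, had the widest span over groups. Its brightest probe set, 1422782_s_at, bears a suffix that marks probes shared with other transcripts. It measured 10.56 and 10.41 in miR-155-/-(LPS + IL-10), against 11.28 and 11.04 in miR-155-/-(LPS). It measured 10.25 and 9.94 in WT(LPS + IL-10), against 10.36 and 10.56 in WT(LPS). Both miR-155-/-(LPS) arrays lay above all 6 others, and knockout arrays given IL-10 overlapped with those of WT(LPS). IL-10 gave a log2 fold change of -0.67 in knockout cells (SE 0.151, 95% interval -1.03 to -0.32, adjusted p = 0.0737 from limma) and -0.37 in WT cells (SE 0.151, 95% interval -0.72 to -0.01, adjusted p = 0.529). The WT estimate rested on donor 2, in which the difference was -0.61, against -0.12 in donor 1. Between miR-155-/-(LPS) and WT(LPS) the log2 fold change was 0.69 (SE 0.173, 95% interval 0.29 to 1.10, adjusted p = 0.128), and 0.60 without WT donor 1. With LPS + IL-10 it was 0.39, with an interval of -0.02 to 0.80, and 0.54 without WT donor 1. The second *Tlr3* probe set, 1422781_at, read 7.29 and 7.29 in miR-155-/-(LPS + IL-10), against 8.01 and 7.80 in miR-155-/-(LPS), with 6.96 and 6.79 in WT(LPS + IL-10), against 7.08 and 7.42 in WT(LPS). Its log2 fold changes were -0.61 and -0.38 for IL-10 in knockout and WT cells and 0.65 for knockout against WT with LPS, each with the sign of the brighter probe set.

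By their brightest probe sets, the single-stranded RNA receptors *Tlr7* and *Tlr8* varied little. *Tlr7* measured 10.61 and 10.69 in miR-155-/-(LPS + IL-10), against 10.73 and 10.63 in miR-155-/-(LPS), with 10.63 and 10.32 in WT(LPS + IL-10), against 10.73 and 10.58 in WT(LPS), and the groups overlapped in each of the 4 comparisons. Its log2 fold change with IL-10 was -0.03 in knockout cells (interval -0.34 to 0.27) and -0.18 in WT cells (interval -0.48 to 0.13), or -0.26 in WT donor 2 alone. The other *Tlr7* probe sets did not follow it. Probe set 1449640_at read 9.35 and 9.46 in miR-155-/-(LPS + IL-10), against 9.76 and 9.89 in miR-155-/-(LPS), with 9.37 and 9.33 in WT(LPS + IL-10), against 8.99 and 9.70 in WT(LPS). Its estimate for IL-10 in knockout cells was -0.42 (interval -0.89 to 0.06), and that of 1419848_x_at, designed on the same expressed sequence tag, was -0.33 (interval -0.80 to 0.15). *Tlr8* measured 6.83 and 7.03 in miR-155-/-(LPS + IL-10), against 6.76 and 6.82 in miR-155-/-(LPS), with 6.73 and 6.54 in WT(LPS + IL-10), against 6.89 and 6.77 in WT(LPS). Its log2 fold change with IL-10 was 0.14 in knockout cells (interval -0.14 to 0.43) and -0.19 in WT cells (interval -0.48 to 0.09).

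*Tlr9*, the receptor for unmethylated CpG DNA, lay at 3.57 and 3.54 in miR-155-/-(LPS + IL-10), against 3.29 and 3.37 in miR-155-/-(LPS), with 3.32 and 3.42 in WT(LPS + IL-10), against 3.27 and 3.47 in WT(LPS). All of these values lay above the Y-linked signal on female arrays, but below the array medians, which ran from 3.88 to 3.97. The level of *Tlr9* was therefore low. The IL-10 arrays of knockout cells were the highest of the 8, with a log2 fold change of 0.23 (interval -0.04 to 0.49, adjusted p = 0.37 from limma), while the estimate in WT cells was 0.00 (interval -0.26 to 0.27). *Tlr13*, the mouse receptor for bacterial ribosomal RNA, measured 10.36 and 10.44 in miR-155-/-(LPS + IL-10), against 10.44 and 10.32 in miR-155-/-(LPS), with 10.55 and 10.78 in WT(LPS + IL-10), against 10.70 and 10.80 in WT(LPS). All 4 knockout arrays lay below all 4 WT arrays, and the share of all probe sets with such a separation was not computed. The log2 fold change was -0.37 with LPS (SE 0.138, 95% interval -0.69 to -0.04, adjusted p = 0.301 from limma), or -0.42 without WT donor 1, and -0.27 with LPS + IL-10 (interval -0.59 to 0.06), or -0.38 without WT donor 1. *Tlr13* is X-linked, as are *Tlr7* and *Tlr8*, and the knockout animals were male. For knockout against WT the brightest *Tlr7* probe set gave 0.03 with LPS and 0.17 with LPS + IL-10, and *Tlr8* gave -0.04 and 0.30. Without WT donor 1 these estimates were 0.10 and 0.33 for *Tlr7* and 0.02 and 0.39 for *Tlr8*. The *Tlr7* probe sets 1449640_at and 1419848_x_at gave 0.48 (interval -0.07 to 1.02) and 0.49 (interval -0.06 to 1.03) with LPS. With LPS + IL-10 they gave 0.05 and 0.08. The part of sex in these values cannot be told apart from that of genotype.

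**Figure D2:**
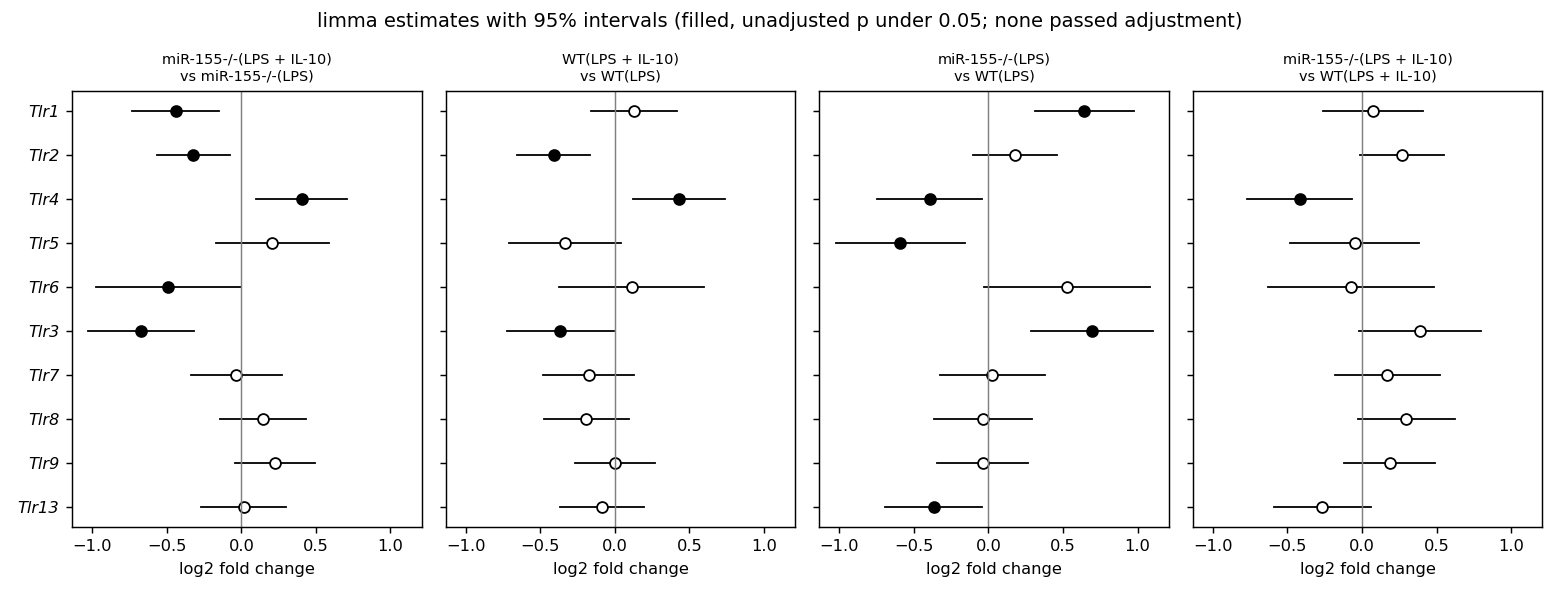
Log2 fold change (horizontal axis) of each receptor's brightest probe set in 4 comparisons, with limma's 95% intervals as lines. Filled points have an unadjusted p under 0.05, and no point passed adjustment. In knockout cells the IL-10 estimates ran between -0.67 for *Tlr3* and 0.40 for *Tlr4*, and for knockout against WT with LPS between -0.59 for *Tlr5* and 0.69 for *Tlr3*.

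The IL-10 difference within each donor gives the same comparison animal by animal. *Tlr4* was higher with IL-10 in 4 of 4 donors, by 0.29 and 0.52 in knockout donors and by 0.28 and 0.57 in WT donors. *Tlr2* was lower in 4 of 4, with differences of -0.36 and -0.29 in knockout donors and -0.37 and -0.45 in WT donors. *Tlr3* was lower in 4 of 4 as well, at -0.71 and -0.63 in knockout donors and -0.12 and -0.61 in WT donors. Of all probe sets, 10.6% were higher in all 4 donors and 11.1% lower. *Tlr1*, *Tlr6* and *Tlr8* had opposite directions in both knockout and both WT donors, as had 14.1% of all probe sets. For *Tlr1* the differences were -0.56 and -0.32 in knockout donors and 0.17 and 0.08 in WT donors, and for *Tlr6* they were -0.65 and -0.32 in knockout donors and 0.21 and 0.02 in WT donors. *Tlr8* ran the other way, at 0.07 and 0.21 in knockout donors and -0.15 and -0.23 in WT donors. The direction of these 3 genes in WT donors rests on differences of 0.23 or less in size.

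**Figure D3:**
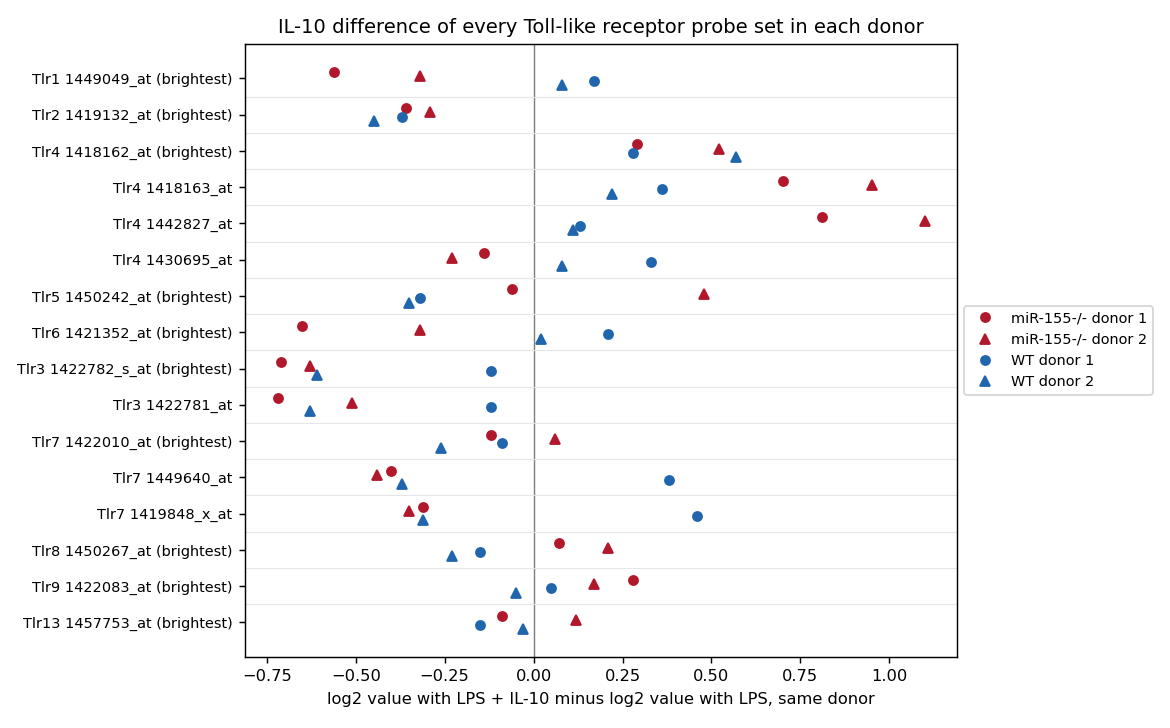
Log2 value with LPS + IL-10 minus that with LPS (horizontal axis) for all 16 probe sets in the 2 knockout donors (red) and the 2 WT donors (blue). All points of *Tlr2* and *Tlr3* lie left of 0, those of 3 *Tlr4* probe sets lie right of it, and for 1449640_at and 1419848_x_at of *Tlr7* WT donor 1 lies apart from the other 3 donors.

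In order of group means, miR-155-/-(LPS) was the highest group for *Tlr1*, *Tlr2*, *Tlr3*, *Tlr6* and *Tlr7* and the lowest for *Tlr4*, *Tlr5*, *Tlr9* and *Tlr13*. Some group is highest and some lowest for every gene. The share of all probe sets with miR-155-/-(LPS) at either end was not computed, so no trait of the family is read from this order. For *Tlr1* the order was miR-155-/-(LPS), miR-155-/-(LPS + IL-10), WT(LPS + IL-10) and WT(LPS), and neighbours among the last 3 overlapped. For *Tlr2* it was miR-155-/-(LPS), WT(LPS), miR-155-/-(LPS + IL-10) and WT(LPS + IL-10), with no overlap between neighbours. For *Tlr3* the middle groups, miR-155-/-(LPS + IL-10) and WT(LPS), overlapped and the outer groups did not. For *Tlr4* the order was WT(LPS + IL-10), miR-155-/-(LPS + IL-10), WT(LPS) and miR-155-/-(LPS), and again only the middle groups overlapped. For *Tlr6* the miR-155-/-(LPS) arrays lay above all other arrays, and the other groups overlapped. For *Tlr5*, *Tlr7*, *Tlr9* and *Tlr13* the miR-155-/-(LPS) arrays overlapped with those of the next group. *Tlr12*, the other family member with a probe set of its own, lay at 3.84 to 4.32 on all arrays and passed no test.

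Genes that act with the receptors were counted from lists, each by its brightest probe set. Of 10 chaperones and co-receptors, 1 had a higher and 1 a lower level in miR-155-/-(LPS) compared with WT(LPS), both at an adjusted p under 0.05 (limma). The lower one was *Cd36*, a scavenger receptor that presents lipids to TLR2 (log2 fold change -1.01, adjusted p = 0.0245), and the higher one was *Tnip1*, which is a brake on NF-kB signalling and no co-receptor (0.97, adjusted p = 0.0444). *Tnip1* was lower with IL-10 in knockout cells (-0.79, adjusted p = 0.0391), the only call of this list there. Of 17 adaptors and kinases 13 were matched, and *Irak2*, a kinase-like partner of MyD88, was the only call, higher in miR-155-/-(LPS) compared with WT(LPS) (1.08, adjusted p = 0.0318) and lower with IL-10 in knockout cells (-1.09, adjusted p = 0.0132). The median log2 fold change of this list was 0.35 for miR-155-/-(LPS) against WT(LPS) and -0.29 for IL-10 in knockout cells, beside 0.02 and 0.01 over all probe sets. Over all probe sets 1.46% were called for miR-155-/-(LPS) against WT(LPS) and 2.68% for IL-10 in knockout cells. The calls were lost under several of the alternatives that leave out arrays. For miR-155-/-(LPS) against WT(LPS), without WT donor 1 none of them passed (adjusted p of 0.115 for *Cd36*, 0.133 for *Tnip1* and 0.116 for *Irak2*), and with any 1 array left out those of *Tnip1* and *Irak2* were lost in 8 of 8 cases (adjusted p 0.062 to 0.261 and 0.0549 to 0.185) and that of *Cd36* in 6 of 8, the 4 knockout and the 2 WT(LPS) arrays (0.0416 to 0.167 over the 8). For IL-10 in knockout cells *Tnip1* was lost without any 1 of the 8 (0.0542 to 0.242), and *Irak2* without any 1 of the 4 knockout arrays (0.0841 to 0.108). Of 11 negative regulators 10 were matched and none was called in any comparison by limma. At an unadjusted p under 0.05, for miR-155-/-(LPS) against WT(LPS) there were 4 of 10 chaperones and co-receptors, 6 of 13 adaptors and kinases and 4 of 10 negative regulators. The shares beside these were 13.8% of all probe sets and 22.1% of the brighter ones. For IL-10 in knockout cells there were 5, 5 and 3 of the genes of these lists, beside 17.3% of all probe sets and 27.4% of the brighter ones. No gene of the 3 lists was called for IL-10 in WT cells, for knockout against WT with LPS + IL-10, or for the difference between the IL-10 effects, where 4, 3 and 5 of these genes had an unadjusted p under 0.05, beside 9.27%, 8.94% and 10.4% of all probe sets. Among the brighter probe sets these shares were 10.8%, 11.5% and 12.5%.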

How the data were processed

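RNA of BMDM from 2 miR-155-/- and 2 WT donors, amplified and labelled with NuGEN kits, was hybridised to Affymetrix mouse genome arrays. The authors deposited log2 intensities, 1 per probe set, computed by RMA (affy package) with its background correction and quantile normalization. Their comparisons used limma, and versions of these tools were not given in the sources used here. RMA intensities have no absolute unit, so levels were compared between groups and not between genes.

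All 8 array columns were matched to samples (0 columns of no sample). Symbols came from the platform annotation of 34958 probe sets with 1 gene (932 had several, 9211 none), and the Entrez ID and symbol of 10 of 10 members were in the RefSeq table of GRCm38.p6, used here for names, neighbours and sequences. Of 45101 probe sets, 64 controls and 26 for Y-linked genes or *Xist* were left out and 45011 tested with limma 3.58.1 under R 4.3.3 (functions lmFit, duplicateCorrelation and eBayes), with 4 group means and the mouse donor as a random block, as in the study's methods, and Benjamini-Hochberg adjustment over all of them. The threshold for a call was an adjusted p of 0.05. The fit was tested on simulated data. Replicate numbers within a genotype mark a donor, so the LPS + IL-10 and LPS arrays of a number were taken as a pair, and deviations from the group means correlated at 0.230 in knockout and 0.754 in WT arrays. Array medians lay between 3.88 and 3.97.

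All 10 members were described on every array, with standard errors and intervals for those at an unadjusted p under 0.05. The members, the lists (chaperones and co-receptors, adaptors and kinases, negative regulators, other family members, and markers of macrophages, stroma, B cells, T and NK cells, neutrophils and dendritic cells) and the tests were chosen with earlier results of these data known. The background share among brighter probe sets, the alternatives for the further *Tlr4* probe sets and those for called list genes and unadjusted counts were added after seeing the data. Alternatives changed the block (none, or a fixed donor term), the arrays fitted (the compared groups alone, 1 array less, or no WT donor 1), the probe sets (mean log2 of 6 or more, Y-linked and *Xist* included, or averages per gene), the variance model (trend with robust priors, or array weights) and the scaling (median centring, or quantile normalization again). The study's own selection, p under 0.05 before adjustment with a log2 change of more than 1 either way, was applied too. Figures were made in matplotlib 3.10.9 (Python 3.11.15).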

Additional observations from a re-analysis of the deposited data

Results flagged for a closer look

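The IL-10 difference ran in opposite directions in both knockout and both WT donors for 3 members, which is what marked them. The effect in miR-155-/- cells minus that in WT cells was -0.57 for *Tlr1* (adjusted p = 0.392 from limma), -0.60 for *Tlr6* (adjusted p = 0.521) and 0.34 for *Tlr8* (adjusted p = 0.537). Without WT donor 1 these values were -0.52, -0.51 and 0.37. None passed the test of the difference, and 14.1% of all probe sets had such opposite directions.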

How the results depend on the processing

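The counts of members called were 0 in each of the 5 comparisons, and 0 to 0 with any 1 array left out. With tests kept to the 15434 probe sets whose mean log2 value reached 6, IL-10 in knockout cells called 4 members (*Tlr1*, *Tlr2*, *Tlr3* and *Tlr4*), IL-10 in WT cells 1 (*Tlr2*, adjusted p = 0.0488) and miR-155-/-(LPS) against WT(LPS) 2 (*Tlr1* and *Tlr3*). That filter leaves 8 members and called 20.6%, 2.12% and 9.87% of the probe sets it kept in these comparisons. An intensity trend with robust hyperparameters called 2 members, *Tlr1* and *Tlr3*, both for IL-10 in knockout cells (5.38% of all probe sets) and for miR-155-/-(LPS) against WT(LPS) (3.49%). For IL-10 in knockout cells, array weights called 1 (*Tlr3*, beside 5.35% of all probe sets) and averaging a gene's probe sets called 2 (*Tlr3* and *Tlr4*, beside 5.71% of genes). The cause of these calls was not tested. Without the replicate block and with the donor as a fixed replicate block, the paired fit, the counts stayed at 0, while members at an unadjusted p under 0.05 were 4 with each for IL-10 in knockout cells, 2 with each for IL-10 in WT cells, and 1 and 2 for the difference between these effects. For *Tnip1*, both calls were lost without the block (adjusted p = 0.055 and 0.102). The replicate block changed the call of both further *Tlr4* probe sets in knockout cells, whose adjusted p-values without it were 0.0917 and 0.105. The fixed block cannot be fitted for knockout against WT, since each donor has 1 genotype. Where only the 4 arrays of 1 genotype were fitted, the donor correlation could not be estimated and no block was used. The fit without WT donor 1 likewise used no donor block. Its results therefore differ from the main fit in the block as well as in the arrays. Over the 16 member estimates at an unadjusted p under 0.05, no alternative reversed a sign. The 2 arrays in each group limit the precision, *Tlr5* lay near background and *Tlr9* lay below the array medians.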
